A study of Danio rerio with 8 samples.

Results

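The response of Tbx5a-depleted zebrafish embryos to a miR-19a mimic was described from 6 of the 8 arrays of the study, 3 MO-Tbx5a+miR-19a and 3 MO-Tbx5a arrays, chosen by their labels. Every array was hybridised with Cy3-labelled RNA of a pool of 50 whole AB embryos at 24 hours post fertilisation (hpf). Embryos of both groups had received 1.5 ng of a morpholino, an antisense oligonucleotide, directed at the start of translation of tbx5a, together with 0.25 ng of a mimic, a synthetic duplex that works as a mature microRNA. The mimic was miR-19a in MO-Tbx5a+miR-19a and a control sequence in MO-Tbx5a. In 2 further arrays, MO-Ct, the embryos carried a control morpholino and the control mimic. Their values are given beside those of the other groups and they entered the fit for the spread. Tbx5a was therefore depleted in both groups that were compared, and the mimic was the named difference between them. All embryos were injected at the 1-cell stage, so every tissue could receive the mimic. Each array gave a log2 value for 39162 probes, and 24716 of these carried a symbol and covered 12792 genes.

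miR-19a belongs to the miR-19 family and is encoded in the miR-17-92 cluster. MicroRNAs are short RNAs that guide the silencing complex to partly complementary sites in messenger RNAs, so that the message is degraded or less protein is made from it. The miR-17-92 genes are known from mouse heart, lung and limb development and from cancer. Tbx5 is a T-box transcription factor needed for heart and forelimb formation, and in zebrafish its loss gives an unlooped heart and no pectoral fins. A transcript can move after a mimic because it is a direct target, because it lies further along in a response, or because the tissue that makes it grew or shrank, and whole-embryo RNA does not separate these. Fewer cells of a type and less RNA per cell cannot be told apart in such pools.

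Several properties of the samples bear on every value below. In the MO-Tbx5a+miR-19a group the treatment entry reads MO-19a, as for another morpholino, but the mimic is what titles and design give, and these were followed. By the labels, 0.5 ug of RNA was labelled with one kit in MO-Tbx5a+miR-19a and 0.2 ug with another in MO-Tbx5a and MO-Ct, whereas the methods describe one kit and one amount for the arrays. If the labels are right, labelling and mimic cannot be told apart in this comparison. Scanner files of the 3 MO-Tbx5a+miR-19a samples correlated across probes with their own columns of the deposited table at r = 0.935, 0.936 and 0.935. With the column of MO-Ct replicate 2 they correlated at 0.946, 0.948 and 0.941. The MO-Ct replicate 1 column gave 0.942, 0.943 and 0.934, and the MO-Tbx5a columns 0.899 to 0.919. The scans therefore do not settle which columns hold the mimic arrays. The values below are those of the table. Within the table the arrays of a group correlated at 0.994 or above, and MO-Tbx5a+miR-19a replicate 2 lay nearer to the MO-Tbx5a arrays (r = 0.980 to 0.982) than replicates 1 and 3 did (0.968 to 0.973). With MO-Ct all 3 correlated at 0.988 to 0.991. The labels do not say whether pools came from separate clutches, so p-values measure only the spread between these pools.

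With the mimic 16512 probes, 42.2 percent of those tested, were called changed by limma, of which 7917 (20.2 percent) were higher and 8595 (21.9 percent) lower. Called probes had changed by over 1.3-fold with both p and the adjusted p (Benjamini-Hochberg) below 0.05. Changes are MO-Tbx5a+miR-19a minus MO-Tbx5a on the log2 scale, where a change of 1 is a doubling. The median change over all probes was -0.02, a value that normalisation between arrays holds near 0. The excess of lower calls depended on the scaling, with 8512 higher and 7954 lower after scaling to the 75th percentile and 8415 and 8087 after cyclic loess was run again. The response was broad and mostly moderate, with a median absolute change of 0.67 among called probes. More than 2-fold differences were found for 1848 probes upwards and 1445 downwards.

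Probes of one gene often disagreed, and genes are therefore described over all of their probes. A gene is called higher when at least 1 of its probes was called higher and 0 were called lower, and lower in the reverse case. By this rule 3775 of 12792 genes (29.5 percent) were higher and 2961 (23.1 percent) lower, 728 (5.69 percent) had probes called both ways, and 5328 (41.7 percent) were not called. Of 7505 genes with 2 or more probes, 1039 (13.8 percent) had at least 2 probes called higher and 0 lower, and 814 (10.8 percent) at least 2 called lower and 0 higher. These are named agreeing genes below. The array values given for a gene are those of its brightest probe, the one with the highest mean over the 6 arrays, and its gene median is the median change over all its probes. In 648 of the 1039 agreeing higher genes (62.4 percent) the brightest probe changed by less than the gene median. Among agreeing lower genes this held for 284 of 814 (34.9 percent). Where only a gene median is printed, the brightest probe can therefore have changed by less.

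Gene groups departed from these shares in both directions. By the calling rule a gene with more probes has more chances of a call, and groups differed in probes per gene. The 50 genes of actins and actin-binding proteins had 142 probes, for example, and all 12792 genes had 24716. Of 187 extracellular matrix probes 43 were higher and 48 lower, beside 5988 and 4989 of the 24716. Counts of called genes are therefore not free of probe number. Subunits of the proteasome and of the mitochondrial respiratory chain were called higher most often, followed by enzymes of glycolysis and the tricarboxylic acid (TCA) cycle, histones and chromatin assembly, epidermis and the mitochondrial ribosome. Genes of neuronal differentiation, hox genes, myogenic regulators, the extracellular matrix, signalling and channel genes and the protocadherin clusters were among those called lower more often than genes overall. The groups were lists of gene symbols, and each is described by its counts and by the median of its gene medians, which was 0.03 over all 12792 genes. By that median the extracellular matrix (0.05) and the signalling list (-0.03) lay near the value over all genes.

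**Figure D1:**
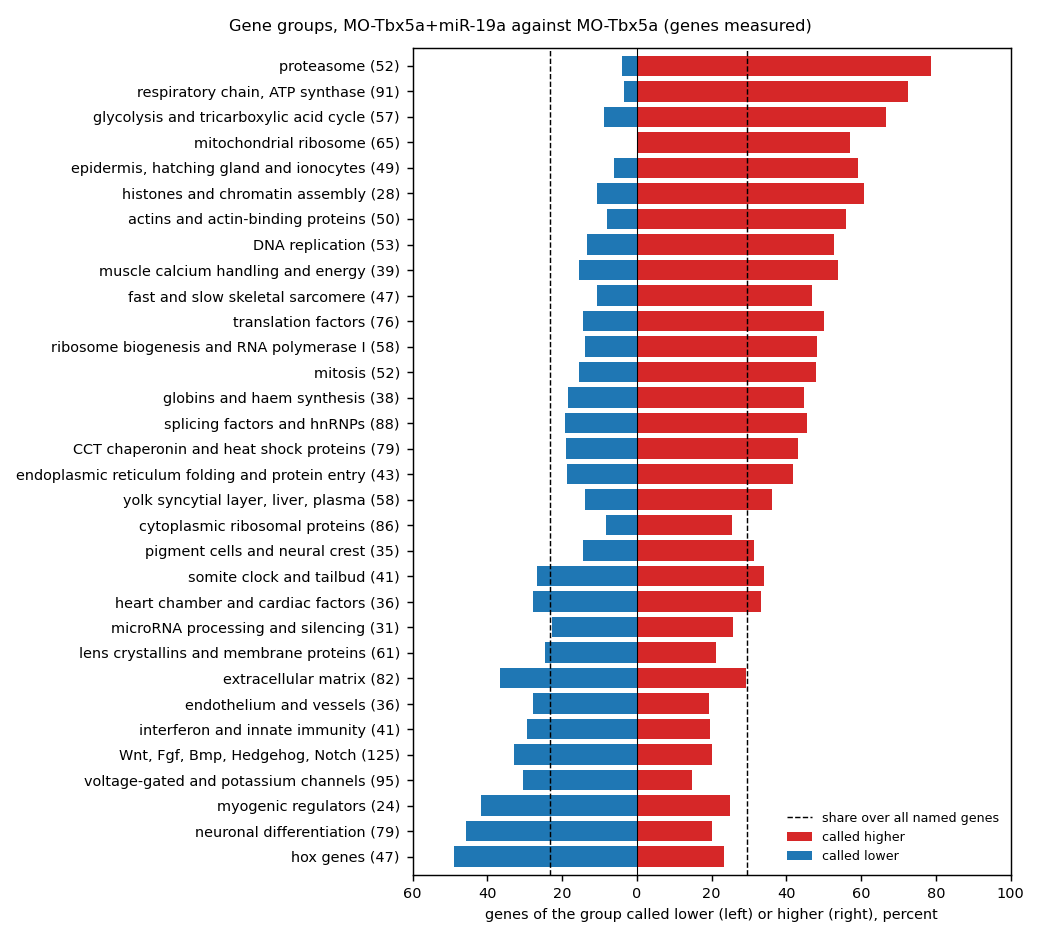
Bars show, for each gene group, the percent of its measured genes called higher (right) and called lower (left) by the mimic comparison (MO-Tbx5a+miR-19a over MO-Tbx5a); the number of genes is in brackets, and dashed lines mark the shares over all named genes, 29.5 and 23.1 percent. The proteasome (41 of 52 higher) and the respiratory chain (66 of 91) are at the top, and hox genes (23 of 47 lower) and neuronal differentiation (36 of 79) at the bottom.

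Among single genes the largest agreeing rise was in tmem38a, which encodes the TRIC-A channel, a potassium channel of the sarcoplasmic reticulum that supports calcium release in muscle. Its brightest probe read 8.99, 8.80 and 8.52 in the MO-Tbx5a arrays and 11.73, 11.24 and 12.03 in the MO-Tbx5a+miR-19a arrays, beside 11.55 and 11.76 in MO-Ct. Both probes rose, by a median of 2.88, and the groups did not overlap. Agreement of probes and separation of the groups were conditions for choosing the genes at the top and bottom, so they are no added support. Across all probes 57.2 percent had MO-Tbx5a+miR-19a and MO-Tbx5a arrays that did not overlap, so separation alone is common here. Most group members named below were picked by their calls or after their values were seen. Separation of their arrays is therefore a description and no added support either.

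tpma, an alpha-tropomyosin of skeletal muscle thin filaments, read 13.53, 13.37 and 13.17 in MO-Tbx5a and 15.55, 15.10 and 15.75 in MO-Tbx5a+miR-19a, with MO-Ct at 15.57 and 15.94. All 3 of its probes rose, by 1.85 to 3.55 (brightest probe 2.11, SE 0.17, limma adjusted p = 2.21e-06). The mimic arrays lay well above the arrays without it and close to MO-Ct. metap1, the methionine aminopeptidase that removes the starting methionine from new proteins, went from 12.18, 12.15 and 12.09 to 13.83, 13.67 and 13.53. Here MO-Ct, at 12.61 and 12.42, lay between the other groups and nearer to MO-Tbx5a. The other genes at the top were rab5if, a mitochondrial and endoplasmic reticulum assembly factor (3 of 3 probes, gene median 2.36), the lactate dehydrogenase ldhba (4 of 4, 2.25), the complex I subunit ndufv1 (2 of 3, 2.21), the heat shock gene hsp70l (2 of 2, 1.98 and 2.02), the muscle aldolase aldoab (2 of 2, 1.98), and the tetraspanins cd9b (2 of 2, 1.96) and cd151 (2 of 2, 1.95). Tetraspanins are membrane proteins that organise adhesion receptors. On the brightest probe the change was only 0.66 for rab5if, 0.84 for ldhba and 1.31 for cd151. It was 2.38 for ndufv1, 1.68 for aldoab and 2.36 for cd9b.

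The largest agreeing falls were smaller. usp22, the ubiquitin protease of the SAGA chromatin complex, read 11.68, 11.79 and 11.78 in MO-Tbx5a and 9.96, 10.21 and 9.85 in MO-Tbx5a+miR-19a, with MO-Ct at 10.40 and 10.38. Both of its probes fell, with a gene median of -1.53 (brightest probe -1.74, SE 0.12, limma adjusted p = 8.59e-07). tcf7l2, a DNA-binding partner of beta-catenin in the Wnt pathway, read 11.18, 10.97 and 10.83 without the mimic and 9.40, 9.57 and 9.29 with it. Of its 3 probes 2 fell and the remaining one changed by 0.31 without a call. pho (phoenix), known from hair cell regeneration in the zebrafish lateral line, fell on 5 of 5 probes but was uneven between mimic arrays, at 10.56, 11.21 and 9.44 against 11.80, 11.76 and 12.13 in MO-Tbx5a. The remaining genes at the bottom were the lens crystallin cryba1l2 (gene median -1.51), fez2b (-1.50), the protocadherin pcdh1gb2 (-1.42), the death effector domain gene dedd1 (-1.40), the RNA polymerase II phosphatase ctdp1 (-1.33), the synaptic vesicle protein syngr3a (-1.32) and midn (-1.32). The brightest probe of midn changed by only -0.93, and those of the others by -1.66 to -1.32.

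**Figure D2:**
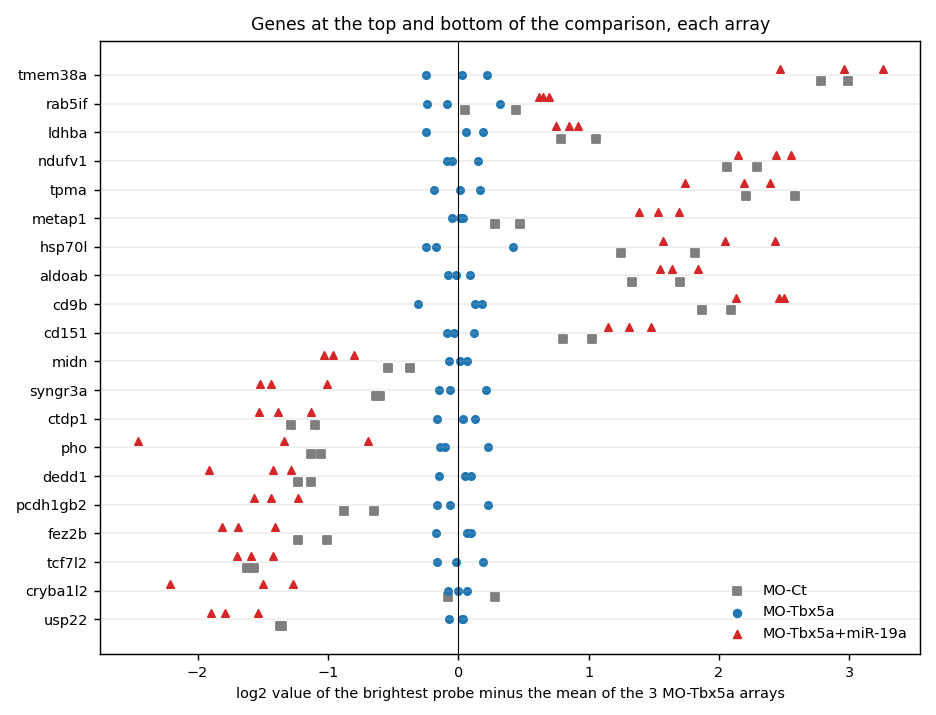
Each point is the log2 value of a gene's brightest probe in 1 array minus the mean of the 3 MO-Tbx5a arrays, for the 10 genes with the highest and the 10 with the lowest gene median among agreeing genes. The genes were chosen among those whose called probes kept the arrays of both groups apart; tmem38a lies furthest above MO-Tbx5a, and the 3 mimic arrays of pho are spread widely.

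The respiratory chain passes electrons from NADH and succinate through complexes I to IV of the inner mitochondrial membrane, and ATP synthase uses the proton gradient that results. Of 91 measured genes of the chain, the synthase and their assembly, 66 were called higher, 3 lower and 3 both ways, and 25 of the 48 with 2 or more probes were agreeing higher against 0 agreeing lower. The shares over all genes were 29.5 percent higher and 23.1 percent lower, and 13.8 and 10.8 percent for agreeing genes. For the group the median of the gene medians was 0.65. In single arrays the median over the 160 probes of the group lay 0.50, 0.64 and 0.71 above the MO-Tbx5a mean in MO-Tbx5a+miR-19a replicates 1, 2 and 3, against -0.08 to 0.05 in the MO-Tbx5a arrays and 0.63 and 0.61 in MO-Ct.

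ATP synthase moved most, with 13 of 16 subunits higher, 0 lower and a median of 1.24. Its catalytic beta subunit atp5f1b was called on 5 of 5 probes, although the brightest of them, near the top of the scale, read 16.48, 16.54 and 16.89 in MO-Tbx5a and 17.14, 17.21 and 17.25 in MO-Tbx5a+miR-19a, a change of only 0.56 (SE 0.13, limma adjusted p = 0.00266) against a gene median of 1.42. The c-ring subunit atp5mc3b went from 14.58, 14.48 and 14.87 to 15.73, 15.59 and 15.76, and 4 of 4 probes rose. The peripheral stalk gene atp5pb went from 12.01, 11.53 and 11.47 to 13.01, 12.85 and 13.26. In each of these the MO-Tbx5a+miR-19a arrays lay above all MO-Tbx5a arrays. The catalytic alpha subunit atp5fa1 had 3 probes called higher and 1 lower, with changes from -1.28 to 2.27.

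In complex I 28 of 37 subunits were higher and 2 lower (median 0.72). ndufv1, which carries the NADH-binding site, read 8.66, 8.70 and 8.90 in MO-Tbx5a, 11.19, 10.90 and 11.30 in MO-Tbx5a+miR-19a and 11.04 and 10.81 in MO-Ct (2.38, SE 0.13, limma adjusted p = 3.71e-07). ndufa9a rose from 8.14, 8.18 and 8.07 to 10.31, 9.94 and 10.45, and both of its probes were called. The mimic arrays of both genes lay above every MO-Tbx5a array. Complex III had 7 of 8 subunits higher (median 0.54) and complex IV 10 of 15 (median 0.48), both with 0 lower. cyc1, the cytochrome c1 of complex III, changed by a gene median of 1.18 (2 of 2 probes) and cox6a1 of complex IV by 1.47 (2 of 2). Complex II, the succinate dehydrogenase shared with the TCA cycle, was more even, with 2 of 5 genes higher, 1 both ways and a median of 0.29.

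The mitochondrial ribosome, which translates the few proteins encoded by mitochondrial DNA, had 37 of 65 genes higher, 0 lower and 4 both ways (median 0.38). All genes together gave 29.5 percent higher and 23.1 percent lower. Among agreeing genes of the mitochondrial ribosome mrpl21 showed a gene median of 1.24. Its brightest probe went from 10.92, 11.23 and 11.14 to 11.60, 11.71 and 11.84. mrps30 was agreeing by 2 dimmer probes, whereas its brightest one read 12.15, 12.24 and 11.72 against 12.04, 12.27 and 12.41, groups that overlapped.

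Glycolysis and the TCA cycle, the routes that break down glucose and feed the respiratory chain, had 38 of 57 genes higher, 5 lower and 5 both ways (median 0.43). For all genes these shares were 29.5 percent higher, 23.1 percent lower and 5.69 percent both ways. Among glycolytic enzymes 19 of 25 were higher. aldoab read 15.01, 14.95 and 15.12 in MO-Tbx5a and 16.58, 16.67 and 16.87 in MO-Tbx5a+miR-19a, and gapdh was called on 4 of 4 probes with changes from 0.57 to 2.02. The brightest gapdh probe, at 15.38, 14.97 and 15.16 against 15.49, 15.76 and 15.96, showed the smallest of them. In the TCA cycle with pyruvate dehydrogenase 16 of 25 genes were higher. The malate dehydrogenases mdh2 (mitochondrial, 5 of 5 probes, gene median 1.15) and mdh1aa (cytosolic, 2 of 2, 1.53) both rose. For mdh1aa the arrays went from 11.79, 11.32 and 11.62 to 13.32, 13.11 and 13.37, with MO-Ct at 13.23 and 13.23.

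The proteasome degrades ubiquitin-tagged proteins. Its 20S core is built of alpha and beta subunits, and its 19S cap holds ATPases that unfold the substrate. Of 52 measured genes 41 were higher, 2 lower and 1 both ways, and 18 of the 33 with 2 or more probes were agreeing higher against 1 agreeing lower (median 0.61). Over all genes 29.5 percent were higher and 23.1 percent lower, with 13.8 and 10.8 percent for agreeing genes. The 4 parts of the particle differed. Of 12 non-ATPase genes of the cap with 2 or more probes 2 were agreeing higher and 1 agreeing lower, near the agreeing shares over all genes. Higher were 9 of 10 alpha subunits (median 1.15), 10 of 11 beta subunits (0.81), 7 of 7 ATPases (0.52) and 11 of 16 non-ATPase subunits of the cap (0.52). In single arrays the 105 probes of the group lay at 0.50, 0.55 and 0.76 above the MO-Tbx5a mean with the mimic, against -0.06 to 0.06 without it and 0.47 and 0.65 in MO-Ct.

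psmb2, a beta subunit of the core, read 13.71, 13.75 and 13.83 in MO-Tbx5a and 14.60, 14.58 and 14.69 in MO-Tbx5a+miR-19a. The spread within each group was small against the change of 0.86 (SE 0.10, limma adjusted p = 2.74e-05), and MO-Ct, at 14.60 and 14.56, lay with the mimic arrays. psmb7, which carries the trypsin-like activity of the core, was called higher on 5 of 5 probes (gene median 0.81). The ATPases psmc6 (gene median 1.63) and psmc2 (1.43) rose on both of their probes. psmc2 went from 13.05, 13.12 and 13.10 to 13.93, 14.02 and 14.21.

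**Figure D3:**
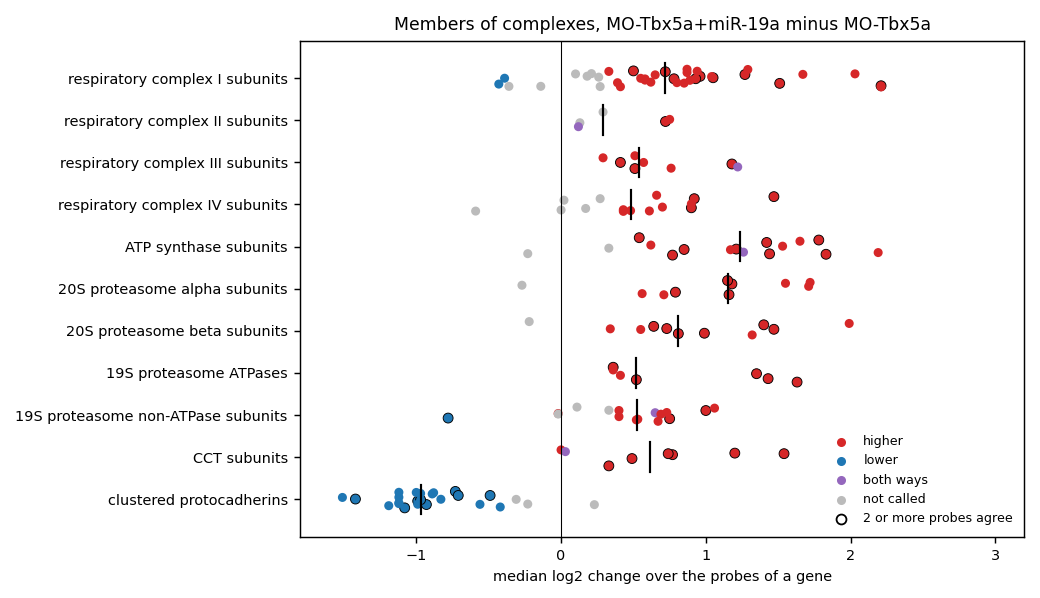
Each point is the median log2 change over the probes of 1 gene, MO-Tbx5a+miR-19a minus MO-Tbx5a, by complex or gene cluster; colours give the call, a black outline marks genes with 2 or more agreeing probes, and vertical bars mark the median of the row. ATP synthase (median 1.24) and the 20S alpha subunits (1.15) lie furthest to the right, and the clustered protocadherins (-0.97) lie to the left.

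Chaperones fold proteins and hold them under stress. Of 79 genes of the CCT chaperonin, the heat shock families and their partners 34 were higher, 15 lower and 8 both ways (median 0.15), and 19 of the 54 with 2 or more probes were agreeing higher against 3 agreeing lower. Shares over all genes were 29.5 percent higher and 23.1 percent lower, and 13.8 and 10.8 percent for agreeing genes. The CCT ring, which folds actin and tubulin, had 7 of 8 subunits higher, 0 lower and a median of 0.62. cct5 went from 10.15, 10.12 and 9.81 to 11.42, 10.98 and 11.57, on both probes. cct3 was called on 1 of 3 probes only, and its brightest probe differed by 0.00 (SE 0.12, limma adjusted p = 0.984). The inducible hsp70l rose from 8.96, 9.04 and 9.63 to 10.78, 11.64 and 11.26, above all MO-Tbx5a arrays, and MO-Ct stood at 10.46 and 11.03. The small heat shock gene hspb1 rose by a gene median of 1.62 (2 of 2 probes). The constitutive hspa8, by contrast, was called higher on 2 and lower on 1 of 11 probes (gene median -0.11), and hsp90ab1 higher on 3 and lower on 1 of 7 (0.16).

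Cytoplasmic ribosomal proteins were measured near the top of the scale, with a median probe level of 17.25. Of 86 genes 22 were called higher (29.5 percent over all genes), 7 were lower, and the median was 0.00. rpl8 was called on 2 of 3 probes, while its brightest probe read 18.14, 17.99 and 17.80 against 18.11, 17.94 and 18.09, which overlapped. rps27.2 fell on both probes, from 17.04, 16.90 and 16.75 to 15.87, 15.84 and 15.96. Of the translation factors 38 of 76 were higher and 11 lower (median 0.17), and of ribosome biogenesis factors with RNA polymerase I 28 of 58 and 8 (median 0.20). eif6, which keeps the large ribosomal subunit from joining too early, rose from 9.61, 9.60 and 9.33 to 10.63, 10.28 and 10.65. eif4ebp1, the repressor of cap-dependent translation that TOR kinase controls, was called on 4 of 5 probes (gene median 1.41), whereas its brightest probe overlapped between groups (0.20, SE 0.16, limma adjusted p = 0.346).

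Bright probes were not all called. When the probes were ranked by mean level and split into 3 classes of equal size, 23.3 percent of the brightest class were called higher and 27.1 percent lower, against 25.8 and 28.1 percent in the middle class and 11.6 and 10.6 percent in the dimmest. In the brightest class 72.2 percent of the respiratory chain probes were higher and 3.01 percent lower. For the proteasome these shares were 69 and 2.38 percent, for glycolysis and the TCA cycle 52.5 and 7.5 percent, and for ribosomal proteins 17.9 and 4.47 percent.

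Genes of cell division moved upwards in smaller steps. Of 53 DNA replication genes 28 were higher, 7 lower and 5 both ways (median 0.29), and of 52 mitosis genes 25 were higher, 8 lower and 9 both ways (median 0.26). Among all genes 29.5 percent were higher and 23.1 percent lower. Of 38 DNA replication genes with 2 or more probes 6 were agreeing higher and 1 agreeing lower. For mitosis these counts were 9 and 4 of 40, beside 13.8 and 10.8 percent over all such genes. The share of agreeing higher DNA replication genes and that of agreeing lower mitosis genes lay near this background. pcna, the sliding clamp of the replication fork, had 1 probe, which read 10.75, 10.95 and 10.45 in MO-Tbx5a and 12.72, 12.36 and 12.69 in MO-Tbx5a+miR-19a, beside 12.26 and 12.62 in MO-Ct. The ribonucleotide reductase rrm1 rose from 14.36, 14.52 and 14.50 to 15.24, 15.14 and 15.30. Both genes kept their groups apart. In the MCM helicase 4 of 6 subunits were higher and 2 both ways. mcm5 had 1 probe called higher and 2 lower, so no direction can be given for it. The spindle gene aspm fell on 4 of 7 probes (gene median -0.45).

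Of 28 genes of histones and chromatin assembly 17 were higher and 3 lower (median 0.27). The shares over all genes were 29.5 and 23.1 percent. hat1, which acetylates new histone H4, read 10.78, 10.76 and 10.65 without the mimic and 12.57, 12.37 and 12.48 with it, and MO-Ct lay between at 11.81 and 11.88 (1.74, SE 0.11, limma adjusted p = 5.60e-07). hmga1a, an architectural protein that bends AT-rich DNA, had 8 of 10 probes called higher and 0 lower (gene median 1.25), and h3f3c, a variant histone H3, 4 of 4 (1.35). Splicing factors and hnRNPs were higher in 40 of 88 genes and lower in 17 (median 0.21). Among them sf3a2 rose from 13.05, 13.23 and 13.14 to 13.66, 13.71 and 13.67.

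Muscle makes up much of the trunk at this stage. Sarcomere genes of fast and slow skeletal muscle were higher in 22 of 47 cases, lower in 5 and both ways in 9 (median 0.23), with 9 agreeing higher and 2 agreeing lower of 33. All genes together gave 29.5 percent higher and 23.1 percent lower, and 13.8 and 10.8 percent for agreeing genes. The sarcomere list did not move as a block. Its array medians overlapped between groups, at 0.11, 0.20 and 0.40 with the mimic and 0.17, -0.10 and -0.07 in MO-Tbx5a, beside 0.34 in each MO-Ct array. myl13, a myosin light chain, rose from 15.76, 15.57 and 15.57 to 17.02, 16.95 and 17.14 on both probes, and mylpfb, a fast regulatory light chain, from 14.85, 14.75 and 14.98 to 15.48, 15.77 and 16.20. Its near relative mylpfa was called on 2 of 3 probes, but its brightest probe overlapped at 16.70, 16.49 and 16.75 against 16.78, 16.53 and 16.73. smyhc1, the slow myosin heavy chain, had 1 probe higher and 1 lower of 3, and the fast myosin myhz2 was not called on its 1 probe (0.32). Myosin heavy and light chain families hold closely similar copies whose transcripts can share probes, so values of single members are uncertain.

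Genes of muscle calcium handling and energy supply were higher in 21 of 39 cases and lower in 6 (median 0.33). The shares over all genes were 29.5 and 23.1 percent. This list shares ldhba, aldoab and gapdh with glycolysis and the TCA cycle. Besides tmem38a it included pvalb4, a parvalbumin that buffers calcium and speeds relaxation. pvalb4 rose from 11.38, 11.12 and 11.12 to 12.32, 12.44 and 12.81 on 3 of 3 probes. ckba, a brain-type creatine kinase, rose on 3 of 3 probes, and its brightest read 8.64, 8.47 and 8.70 against 11.37, 11.01 and 11.47. MO-Ct lay at 10.45 and 10.26, below all 3 mimic arrays. ckmb, the muscle enzyme, rose on 4 of 5 probes (gene median 0.58).

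The transcription factors that specify muscle were called lower more often than higher. Of 24 myogenic regulators 6 were higher and 10 lower, beside 29.5 and 23.1 percent over all genes. They had 0 agreeing higher, 3 agreeing lower and a median of -0.14. That median moved to -0.01 without MO-Tbx5a replicate 2, to -0.25 without MO-Tbx5a replicate 3 and to -0.03 when MO-Tbx5a+miR-19a replicate 3 was left out. mef2aa, a MADS-box factor of heart and skeletal muscle, read 12.87, 12.73 and 13.05 in MO-Tbx5a and 11.52, 11.93 and 11.44 in MO-Tbx5a+miR-19a, with MO-Ct at 11.90 and 11.95, and 2 of 3 probes fell. six1a, a homeobox factor of fast muscle, fell on 3 of 3 probes (gene median -0.57). myod1, by contrast, rose on its 1 probe, from 11.31, 11.35 and 11.06 to 12.05, 11.68 and 11.75.

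Tbx5 acts in the heart, and the study was built around the heart defect, but heart genes gave no common direction on these arrays. Of 36 genes of heart chambers and cardiac factors 12 were higher and 10 lower (29.5 and 23.1 percent over all genes), and the median of -0.03 ran from -0.12 without MO-Tbx5a replicate 3 to 0.05 without MO-Tbx5a replicate 1. The myosin light chain myl7, a marker of all cardiomyocytes, read 11.25, 10.99 and 11.63 in MO-Tbx5a and 11.56, 11.50 and 11.47 in MO-Tbx5a+miR-19a, and neither of its probes was called (0.22, SE 0.18, limma adjusted p = 0.328). myh7, the ventricular myosin heavy chain vmhc, fell from 9.70, 9.36 and 9.51 to 8.54, 8.61 and 8.67, with MO-Ct at 8.77 and 8.32. The marker of both chambers and the ventricular marker thus differed in their calls.

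tnnc1a, the cardiac troponin C, rose from 7.95, 7.86 and 8.92 to 10.19, 10.21 and 10.59 and ended above MO-Ct, at 8.27 and 8.15. actc1a, the cardiac alpha-actin that is also made in somites, rose on 4 of 4 probes (gene median 1.31). nkx2.5, an early cardiac homeobox factor, rose on 2 of 2 probes by a gene median of 0.48, close to the lower end of the scale at 5.20, 5.12 and 5.21 against 5.74, 5.42 and 5.66. tbx2a, a T-box repressor, fell on 3 of 3 probes (gene median -0.77), and bmp4, a ligand that signals at the atrioventricular canal, on 2 of 3 (-0.64). bmp4 was uneven with the mimic, at 9.26, 9.69 and 8.60 against 9.99, 9.95 and 9.80. hand2 (3 probes) and gata4 (1 probe), factors of the early heart field, were not called. The heart is a small share of the whole embryo, and many of these genes are also made elsewhere.

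Globins and haem synthesis genes were higher in 17 of 38 cases and lower in 7 (median 0.12). Of the 25 with 2 or more probes 7 were agreeing higher and 0 agreeing lower. The shares over all genes were 29.5 and 23.1 percent, and 13.8 and 10.8 percent for agreeing genes. The globins themselves, whose copies are nearly identical, were higher in 5 of 8 and lower in 0. The embryonic globin hbae1.1 lay at 16.46 or below in all MO-Tbx5a arrays and at 16.78, 16.91 and 17.00 with the mimic, and MO-Ct stood at 17.20 and 17.09. alad, an early enzyme of the haem pathway, rose from 9.23, 9.28 and 9.09 to 10.16, 9.92 and 10.24, and lmo2, a bridging factor of blood and vessel progenitors, rose on 3 of 3 probes (gene median 1.02). alas2, the erythroid enzyme that opens haem synthesis, went the other way on 1 of 4 probes, from 10.29, 10.50 and 9.84 to 9.43, 9.47 and 9.56.

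Actin and its binding proteins build the cell cortex and the thin filaments of muscle. Of 50 genes 28 were higher, 4 lower and 9 both ways, with 16 agreeing higher and 2 agreeing lower of 38 (median 0.45). For all genes the called shares were 29.5 percent higher and 23.1 percent lower, and the agreeing shares 13.8 and 10.8 percent. capzb, which caps filament ends, rose from 10.17, 10.21 and 10.35 to 12.40, 11.68 and 11.97, above MO-Ct at 11.47 and 11.14. The Arp2/3 complex, which nucleates branched actin, had 7 of 10 subunits higher and 0 lower. arpc2 was called on 3 of 3 probes and read 13.59, 13.68 and 13.76 without and 14.51, 14.59 and 14.66 with the mimic. For the cytoplasmic actin actb2 6 of 9 probes were called higher and 0 lower (gene median 1.23), while its brightest probe read 18.00, 17.94 and 17.85 against 17.77, 17.67 and 17.64 and was not called.

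Epidermis, hatching gland and ionocyte genes were higher in 29 of 49 cases, lower in 3 and both ways in 5, with 13 agreeing higher and 0 agreeing lower of 35 (median 0.39). Shares over all genes were 29.5 percent higher and 23.1 percent lower, and 13.8 and 10.8 percent for agreeing genes. Keratins, the filaments of the outer cell layers, were higher in 11 of 18. krt92 rose from 17.07, 16.63 and 16.51 to 18.20, 17.89 and 17.83, and krt17 from 15.36, 14.96 and 14.57 to 16.71, 16.48 and 16.45. cyt1l rose on 6 of 7 probes (gene median 1.44). krt4, a keratin of the periderm, had 5 probes called higher and 1 lower of 9, and its brightest probe, at 18.31, 18.21 and 18.57 against 18.23, 18.06 and 17.86, overlapped. Keratins are another family of near-identical copies.

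**Figure D4:**
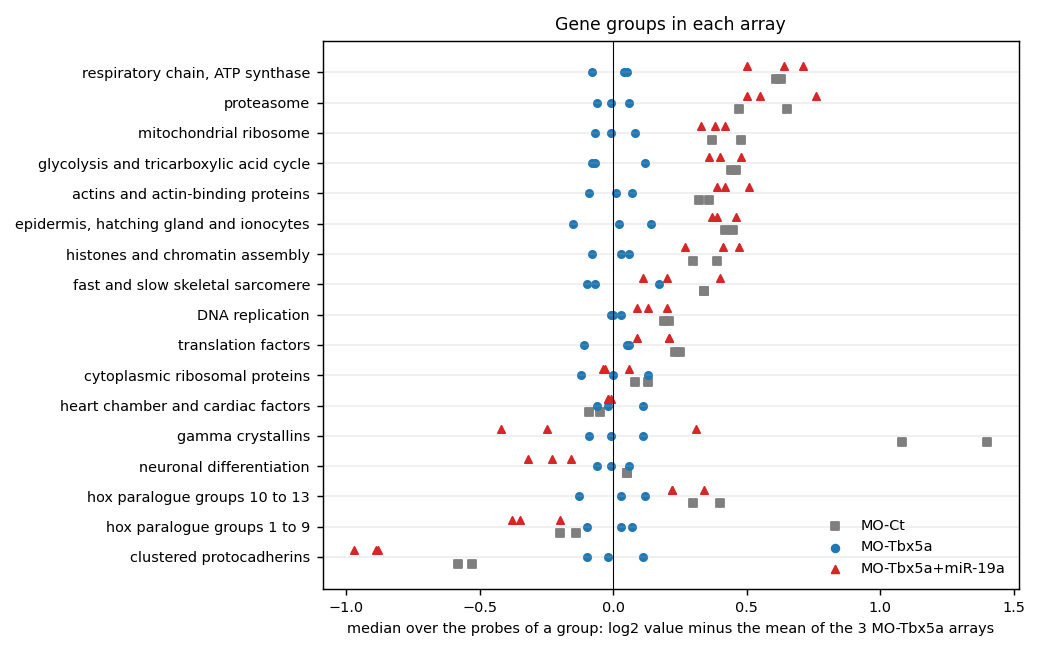
Each point is 1 array, at the median over the probes of a gene group of the log2 value minus the mean of the 3 MO-Tbx5a arrays. MO-Tbx5a+miR-19a arrays lie at 0.50 to 0.71 for the respiratory chain and at -0.97 to -0.88 for the clustered protocadherins, outside the MO-Tbx5a arrays. They overlap with them for ribosomal proteins, heart genes, the skeletal sarcomere and gamma crystallins. MO-Ct is drawn for comparison and shares the MO-Tbx5a baseline.

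Of 79 genes of neuronal differentiation 36 were lower, 16 higher and 6 both ways, and 17 of the 56 with 2 or more probes were agreeing lower against 1 agreeing higher (median -0.26). Among all genes 23.1 percent were lower and 29.5 percent higher, with 10.8 and 13.8 percent for agreeing genes. Array medians over the group's 181 probes were -0.32, -0.16 and -0.23 with the mimic. They were -0.06 to 0.06 in MO-Tbx5a and 0.05 in each of the MO-Ct arrays. pax6b, a homeobox factor of eye and forebrain, read 12.33, 12.20 and 12.17 in MO-Tbx5a and 11.12, 11.19 and 10.45 in MO-Tbx5a+miR-19a, and MO-Ct lay at 11.35 and 11.38. Its paralogue pax6a fell on 5 of 6 probes (gene median -0.58), at 12.46, 12.27 and 12.09 against 11.54, 11.63 and 11.47. The groups did not overlap in either gene, and the pax6a arrays with the mimic also lay below MO-Ct, at 11.99 and 12.15.

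Markers of neurons that have left the cell cycle gave the same direction in part. elavl4, an RNA-binding protein of early neurons, fell from 11.59, 11.46 and 11.41 to 10.61, 10.59 and 10.35. elavl3, its relative and the usual pan-neuronal marker, fell on its 1 probe from 11.14, 10.98 and 10.75 to 10.59, 10.43 and 10.20. The neurofilament nefmb fell on both probes, from 10.60, 10.36 and 10.58 to 9.60, 9.71 and 9.37. en2a, which marks the midbrain-hindbrain boundary, fell on 2 of 3 probes (-0.91). gap43, a growth cone protein, was not called (0.12, SE 0.11, limma adjusted p = 0.388), nor was the tubulin tubb5 on any of 3 probes, and snap25a had 3 probes lower and 1 higher of 4.

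Protocadherins are cadherins of neuronal membranes, and the clustered ones give each neuron its own surface identity. Their group was singled out after pcdh1gb2 was seen among the largest falls. Of 25 measured genes of the zebrafish pcdh1 and pcdh2 clusters 22 were lower and 0 higher, 8 of the 9 with 2 or more probes were agreeing lower, and the median was -0.97. Transcripts of one cluster share their last exons, so their probes may read common sequence and the genes are not separate observations. pcdh1gb2 fell on 3 of 3 probes, from 12.18, 11.79 and 11.89 to 10.51, 10.72 and 10.38, below MO-Ct at 11.30 and 11.07. pcdh2ac fell on 6 of 7 probes, from 12.55, 12.26 and 12.31 to 10.80, 11.35 and 11.14. Outside the clusters pcdh19, which acts in neural adhesion and in humans is an epilepsy gene, fell on 5 of 5 probes (gene median -1.28). It read 12.96, 12.86 and 12.69 in MO-Tbx5a, 11.39, 11.61 and 11.31 in MO-Tbx5a+miR-19a and 12.62 and 12.72 in MO-Ct, so that both groups without the mimic lay above all mimic arrays. Over the 9 protocadherins outside the clusters 4 were lower, 0 higher and 1 both ways. These shares were 23.1, 29.5 and 5.69 percent over all genes.

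Channel genes were measured mostly by dim probes, with 89 of 135 in the dimmest class. Of 95 voltage-gated and potassium channel genes 29 were lower, 14 higher and 52 not called (median -0.10). The shares over all genes were 23.1, 29.5 and 41.7 percent. The list was drawn by symbol and holds kctd genes, which share a domain with potassium channels but are not channels. The neuronal sodium channel scn8aa fell on its 1 probe from 10.42, 10.40 and 10.35 to 9.25, 9.40 and 9.14, and scn4ba, a sodium channel beta subunit, on 3 of 5 probes (gene median -0.81). kcnj1a.5, a member of the inward rectifier potassium channels, rose on 2 of 3 probes (0.78).

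The hox genes, which give cells their position along the body axis in the order of their clusters, were lower in 23 of 47 cases, higher in 11 and both ways in 6 (median -0.21). Among all genes 23.1 percent were lower, 29.5 percent higher and 5.69 percent both ways. The direction of hox genes differed along the clusters, a split that was made after the values were seen. In paralogue groups 1 to 9 there were 19 lower and 3 higher of 31 (median -0.36, 10 agreeing lower and 0 agreeing higher). In groups 10 to 13 there were 4 lower and 8 higher of 16 (median 0.24, 1 agreeing lower and 3 agreeing higher). The 3 mimic arrays lay at -0.20, -0.35 and -0.38 for the first set of probes and at 0.34, 0.22 and 0.22 for the second. MO-Ct arrays lay on the same sides, at -0.20 and -0.14 and at 0.40 and 0.30.

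hoxc4a fell on 3 of 4 probes and read 10.70, 10.69 and 10.42 against 9.49, 9.35 and 9.62, with MO-Ct at 10.17 and 10.28. hoxc6a fell on both probes from 10.70, 10.56 and 10.37 to 9.57, 9.85 and 9.45. hoxb4a, with 1 probe, changed by -1.47 (SE 0.12, limma adjusted p = 3.21e-06). In each the groups were apart. Among posterior genes hoxa10b rose on 4 of 4 probes, from 9.44, 9.54 and 9.39 to 10.62, 10.30 and 10.25, and hoxa13b on both by a gene median of 0.68. hoxd13a rose on both probes too (0.61), but its arrays overlapped, at 8.03, 8.31 and 7.53 against 8.38, 8.60 and 8.29. hoxa11b went against hoxa10b and hoxa13b and fell on both probes, from 11.45, 11.53 and 11.61 to 10.50, 10.61 and 10.36. Further posterior genes called lower were hoxa11a (-0.40, 1 probe), hoxa13a (-0.50, 1 probe) and hoxb10a, whose gene median was 0.17. hoxc11a was called both ways (-0.51). The hoxa9 to hoxa13 and hoxd genes pattern the distal fin bud in zebrafish, but trunk and tail contribute the same transcripts at 24 hpf.

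**Figure D5:**
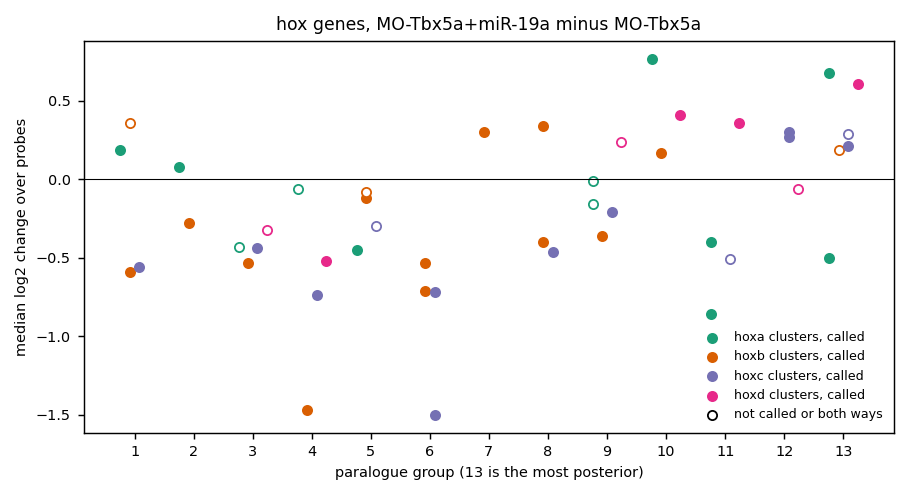
Each point is 1 hox gene at its paralogue group (horizontal axis, 1 to 13) and its median log2 change over probes (vertical axis, MO-Tbx5a+miR-19a minus MO-Tbx5a), coloured by cluster, with open points for genes not called or called both ways. Most called genes of groups 1 to 9 lie below 0 (19 lower, 3 higher), and those of groups 10 to 13 lie on both sides (4 lower, 8 higher).

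Ligands, receptors and mediators of Wnt, Fgf, Bmp, Hedgehog and Notch signalling were lower in 41 of 125 cases and higher in 25 (median -0.03). Over all genes 23.1 percent were lower and 29.5 percent higher. In this list 11 genes were agreeing lower and 7 agreeing higher, and gene medians ran from -1.44 to 1.09. A further 9 were called both ways and 50 were not called, and without the dimmest class of probes the median was -0.23. In the Wnt pathway 17 of 53 genes were lower, 14 higher and 3 both ways, with 7 agreeing lower and 3 agreeing higher. The Wnt median was 0.04, beside 0.03 over all genes, so the pathway as a whole showed no common direction. The Wnt genes described next fell or were called both ways, and the 14 higher ones are not named. axin2, a feedback inhibitor that Wnt signalling itself induces, read 13.08, 12.98 and 12.79 in MO-Tbx5a and 11.67, 11.98 and 11.71 in MO-Tbx5a+miR-19a, below MO-Ct at 12.17 and 12.33. axin1, the scaffold of the beta-catenin destruction complex, fell on both probes from 13.56, 13.27 and 13.41 to 12.44, 12.39 and 12.23. lef1, a further DNA-binding partner of beta-catenin, fell on 2 of 3 probes (gene median -0.39). beta-catenin itself, ctnnb1, had 1 probe called higher and 1 lower of 3.

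From the other pathways only genes that fell or were not called are named here. They do not stand for the list, in which 25 genes were higher, 7 of them agreeing higher. bmpr2a, a type II Bmp receptor, fell from 9.79, 9.77 and 9.77 to 8.25, 8.38 and 8.42 on both probes (-1.43, SE 0.10, limma adjusted p = 1.27e-06). fgfr2, an Fgf receptor, was lower on 6 of 6 probes, and its brightest went from 13.40, 13.28 and 13.17 to 12.28, 12.85 and 12.27, while the ligand fgf8a was not called on either probe. ihhb, an Indian hedgehog ligand, fell on both probes (gene median -0.91). In the Notch pathway the receptor notch1a fell on 1 of 2 probes, the ligand jag1b on 2 of 3 (-0.51) and the DNA-binding mediator rbpja on 2 of 3 (-0.85), with a remaining rbpja probe at 0.36. rbpja read 12.13, 12.05 and 11.94 without the mimic and 10.62, 10.98 and 10.87 with it and the groups did not overlap.

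Lens genes were the least even group among the mimic arrays. Of 61 genes 15 were lower, 13 higher and 30 not called (median -0.17, or 0.04 once MO-Tbx5a+miR-19a replicate 1 was left out). Over all genes these shares were 23.1, 29.5 and 41.7 percent. The gamma crystallins, a family of closely similar copies, had array medians of -0.42, -0.25 and 0.31 with the mimic (replicates 1, 2 and 3). They were -0.09 to 0.11 in MO-Tbx5a and 1.08 and 1.40 under the control morpholino. Both groups with the tbx5a morpholino thus lay below the control. cryba1l2 read 10.49, 10.56 and 10.41 in MO-Tbx5a and 8.28, 8.99 and 9.22 in MO-Tbx5a+miR-19a, against 10.41 and 10.77 in MO-Ct. The lens gap junction gene gja8b fell on 3 of 3 probes, from 8.09, 8.03 and 8.53 to 6.89, 7.02 and 7.60. Both genes were lower with the mimic than in either other group.

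The machinery that makes and uses microRNAs was examined because a mimic draws on it. Of 31 genes of microRNA processing and silencing 8 were higher, 7 lower and 6 both ways (median -0.11). Over all genes these shares were 29.5, 23.1 and 5.69 percent. dicer1, which cuts precursors to mature microRNAs, was called lower on 2 of 4 probes, and its brightest read 12.41, 12.33 and 12.57 in MO-Tbx5a, 11.67, 11.70 and 11.71 in MO-Tbx5a+miR-19a and 11.58 and 11.47 in MO-Ct. Its gene median was -0.29 and its probes ran from -0.74 to 0.09. drosha, which makes the first cut in the nucleus, was not called on any of 3 probes.

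A short list of genes that the study discusses as miR-19a targets was looked at as well. Its candidate list is far longer and was not analysed here. The study drew it from these arrays together with target prediction, so the direction is not independent evidence. The study also reports PCR on selected genes and lower activity of a mef2ca luciferase reporter with miR-19a. Of the 10 genes of the short list with probes 8 were called lower, 0 higher and 1 both ways, and 4 were agreeing lower (kctd12.2, mef2aa, kctd15b and mef2ca). For mef2ca the brightest probe overlapped, at 12.55, 12.80 and 12.84 against 12.71, 12.56 and 12.69. Target sites were not analysed here.

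Markers fixed for 13 cell types were also examined. Probes were found for 36 of 39 markers, with MO-Tbx5a means between 5.63 (the lens marker cryaa) and 18.36 (krt4), so every cell type had a marker with a probe. A probe alone does not show that a tissue contributed RNA. Of the 36 markers 12 were called higher, 9 lower, 7 both ways and 8 not called. Over all genes these shares were 29.5, 23.1, 5.69 and 41.7 percent, so the higher and lower counts of markers lay near those of genes overall. Of the fast muscle markers mylpfa and acta1b were higher, tnnt3b lower and myhz2 not called, and the slow muscle markers smyhc1 and tnnc1b were both ways. Among erythrocyte markers hbae1.1 and gata1a were higher and alas2 lower. The neuronal markers elavl3 and elavl4 were lower and gap43 was not called, and the heart markers myh7 and tnnt2a were lower and myl7 was not called. Of the pigment markers dct was higher, pmela both ways and tyr not called, and of the notochord markers col2a1a was lower and tbxta and shha were not called. Of the myeloid markers mpx and lyz were higher and spi1b lower, and of the endothelial markers cdh5 and fli1 were higher and kdrl not called. Of the lens markers cryaa was lower, close to the lower end of the scale (mean 5.63 in MO-Tbx5a, 5.03 in MO-Tbx5a+miR-19a). The lens marker cryba2b was called higher on 1 of 3 probes, with a gene median of 0.03 and brightest-probe means of 11.15 and 11.17. Both ways were ctslb of the hatching gland, krt4 and krt5 of the epidermis and apoa1b of the yolk syncytial layer and liver. In the same tissues cyt1 and apobb.1 were higher and he1.1 not called. Some calls rest on 1 probe, as for mpx (1 of 3, gene median -0.00) and alas2 (1 of 4). Single cell types were not measured, and the part of tissue size in the changes above was not tested.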

How the data were processed

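Total RNA of 8 embryo pools was hybridised to 1-colour Agilent zebrafish arrays (4x44K). The authors subtracted background from median signals by normexp with an offset of 16 and then applied cyclic loess between arrays. The log2 values deposited (4.06 to 19.4, array medians 7.77 to 7.80) were analysed without further normalisation. The deposited scans of the MO-Tbx5a+miR-19a samples gave processed intensity values after background subtraction, which served only to check arrays and, through their accessions, to name probes (RefSeq genes of GRCz12tu, names only). No probe matched tbx5a, and 14446 probes had no symbol. Precision is set by the number of arrays, which carry no read depth.

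All 8 arrays entered a limma model with a mean for each group (limma 3.58.1, R 4.3.3), checked on simulated data, and p-values were two-sided and adjusted over 39162 probes. Named genes were the 10 highest and 10 lowest agreeing genes whose called probes had arrays that did not overlap, without clone names, and up to 4 members of each list by gene median, with defining members. Beyond this rule, members of a described complex, pathway or family were named after their values were seen. The comparison, members and 34 lists were chosen with earlier results of these data known, and list symbols were corrected on annotation. Some genes and 1 list are not reported here.

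Alternatives were quantile, 75th-percentile and repeated cyclic loess scaling, a filter on dim probes, trend and robust eBayes, fold thresholds of 2 or none, 6 arrays only, a replicate block, each array left out, and averaging of the probes of a gene. Leaving out MO-Ct arrays was added after seeing the data.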

Additional observations from a re-analysis of the deposited data

How the results depend on the processing

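The count of called probes (16512) stayed within 1.5 times under all alternatives except a fold change above 2, which left 3293 probes (1848 higher, 1445 lower). Agreeing genes (1853) went to 251 (170 higher, 81 lower) at that threshold. Averaging the probes of a gene before the fit counts something else, genes called on their mean, and gave 2842 genes with 2 or more probes, 1639 higher and 1203 lower. With each MO-Tbx5a or MO-Tbx5a+miR-19a array left out in turn the fits gave 15339 to 17343 probes, 7300 to 8274 higher and 8039 to 9069 lower, and 1661 to 1894 agreeing genes, 902 to 1048 higher and 759 to 846 lower. Without a MO-Ct array there were 16452 probes and 1850 agreeing genes. In that fit the remaining MO-Ct array adds nothing to the estimate of the spread. No pairing by replicate number was seen, as deviations of same-numbered arrays correlated at -0.01, -0.11 and -0.12. Deviations from means of only 3 arrays cannot exclude that same-numbered pools shared a clutch. The replicate block gave 16387 probes (7869 higher, 8518 lower) and 1833 agreeing genes (1028 higher, 805 lower). Of the 140 genes named by the rule 3 changed sign, none of them called on that probe. The brightest probes of rack1 and rpl8 read -0.07 and -0.04 after cyclic loess was run again. With single arrays left out, rack1 ran from -0.04 (without MO-Tbx5a replicate 3) to 0.14, rpl8 from -0.02 (the same array) to 0.15, and mavs from -0.10 to 0.03, with 0.01 without MO-Tbx5a replicate 3. Apart from the 2-fold threshold, 120 of the 140 kept their side of the call in all alternatives. The list median of the extracellular matrix ran from -0.01 (without MO-Tbx5a replicate 3) to 0.07. Leaving out the dimmest class of probes moved several small list medians, to -0.29 for channels, -0.23 for the signalling list, -0.18 for heart genes and 0.39 for the sarcomere. The causes of these shifts were not tested. Values under 5 on the log2 scale (4.4% of all) lie near the floor, where changes can be compressed.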

Other observations

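Several gene groups stood outside the comparisons above. Yolk syncytial layer, liver and plasma protein genes were higher in 21 of 58 cases and lower in 8 (median 0.17), with 10 agreeing higher and 4 agreeing lower. Over all genes 29.5 percent were higher and 23.1 percent lower. The fibrinogen chain fga read 9.79, 9.96 and 10.32 in MO-Tbx5a, 11.08, 11.31 and 10.99 in MO-Tbx5a+miR-19a and 10.15 and 10.19 in MO-Ct, so that the mimic arrays lay above both other groups. The lipid carrier apoa4b.1 rose from 10.36, 10.17 and 9.86 to 11.38, 12.13 and 11.73 and also passed MO-Ct, at 11.09 and 11.11. Genes of protein folding and entry in the endoplasmic reticulum were higher in 18 of 43 cases and lower in 8 (median 0.09). The chaperone hspa5 rose on 4 of 6 probes, from 14.46, 14.60 and 14.57 to 15.75, 15.66 and 15.78 on the brightest. ssr1, a subunit of the complex at the translocon, rose on 3 of 4 probes, whereas its brightest probe changed by -0.23 and was not called.

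Extracellular matrix genes were called in both directions, 24 higher and 30 lower of 82 (29.5 and 23.1 percent over all genes, list median 0.05). fn1a, a fibronectin, fell from 10.26, 10.48 and 9.93 to 9.30, 8.54 and 8.62, and col5a2a rose on 3 of 3 probes from 10.79, 11.06 and 10.54 to 11.84, 11.52 and 11.67. Of 36 genes of endothelium and vessels 7 were higher and 10 lower (29.5 and 23.1 percent over all genes, list median -0.14). vegfaa, the main growth factor of blood vessels, fell on its 1 probe from 11.06, 10.86 and 11.17 to 9.41, 9.60 and 9.24, with MO-Ct at 9.53 and 9.34. Its receptor relative flt4 and the endothelial gene plvapb rose by gene medians of 0.97 (1 probe) and 1.02 (2 of 2).

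Pigment cell and neural crest genes were higher in 11 of 35 cases and lower in 5, somite clock and tailbud genes in 14 and 11 of 41, and interferon and innate immunity genes in 8 and 12 of 41. Over all genes 29.5 percent were higher and 23.1 percent lower, and most of these shares lay near that background.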
